A study of Mus musculus with 8 samples.

Results

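miR-143 and miR-145 are a pair of miRNAs cut from neighbouring hairpins of a shared primary transcript, the host gene of which RefSeq names Carmn. They are known above all as miRNAs of smooth muscle and other mesenchymal cells, where serum response factor and myocardin switch on their transcript and where they help to hold the contractile state. miR-143 has also been linked to the differentiation of adipocytes, the main cells of the mammary fat pad, and the mammary duct carries an outer layer of contractile myoepithelial cells. They were chosen by name (mmu-miR-143 and mmu-miR-145), and were 2 of the 611 mouse miRNAs on the array.

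The miRNAs were measured in tissue micro-dissected from the mammary glands of female 5-week-old FVB/n mice that carry a β-actin–GFP reporter, with no treatment and no other allele named. The fractions were TEBs (terminal end buds, which are the growing tips of the pubertal ducts) with 3 arrays, mature ducts with 2 and distal stroma with 3. Neither the labels nor the methods say whether the arrays of a tissue came from separate mice, so that p-values measure the spread between these RNA samples. Each fraction is a piece of tissue and not a sorted cell type, and fewer cells of a type cannot be told apart from less RNA per cell.

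The values are total signals of each miRNA on a single-colour Agilent array, with the background subtracted, so that a signal near 0 or below it is not above background. Each array was scaled to the 75th percentile of the 108 miRNAs called detected on all 8 arrays, with factors of 0.750 to 1.36. Between 23.2% and 27.7% of the mouse miRNAs were detected per array, and the 167 with a detection on each array of some tissue were tested. The tissue labels were checked against epithelial miRNAs, namely the miR-200 and miR-183 families and miR-203. Of these 9 miRNAs, 7 were detected on all duct and TEB arrays and 0 on any stroma array, while miR-182 and miR-203 were detected on no array. This check separates stroma from the epithelial fractions only and cannot tell ducts from TEBs. It is also not independent, since the paper describes the miR-200 family, miR-183 and miR-96 as epithelial from its own profiling.

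mmu-miR-143 was detected on all 8 arrays and mmu-miR-145 on 0 of them. The scaled signal of miR-143 was 93.4, 85.7 and 68.8 units on the 3 stroma arrays. On the 2 duct arrays it was 100.7 and 89.5 units. On the 3 TEB arrays it was 60.6, 65.5 and 60.4 units. Under this scaling every TEB array therefore lay below every duct and every stroma array, whereas the duct and stroma arrays overlapped. Before scaling, stroma replicate 3 (50.6 units) lay below all TEB arrays (57.8 to 69.2 units), and both duct arrays lay above them. With the percentile taken over all mouse miRNAs, TEB replicate 1 (83.4 units) lay above duct replicate 1 (71.9 units). It also lay above stroma replicates 2 and 3 (69.2 and 55.4 units), but below stroma replicate 1 and duct replicate 2. The scanner software put the error of the miR-143 signal at 11.9% of the signal in stroma, 10.4% in ducts and 10.6% in TEBs (means over the arrays of a tissue). The SD between arrays was 15.3% of the mean in stroma, 8.33% in ducts and 4.62% in TEBs.

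**Figure D1:**
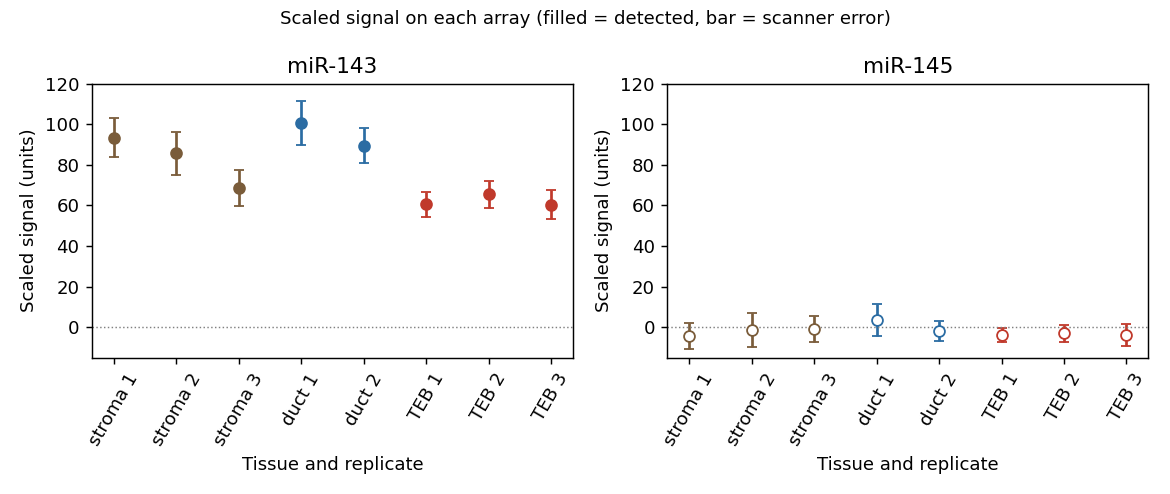
Scaled signal (units) of miR-143 and miR-145 on each of the 8 arrays, with bars for the scanner software's error of the signal and filled points where the miRNA was called detected. miR-143 lies between 60.4 and 65.5 units on the TEB arrays and at 68.8 units or more on the others, and miR-145 lies around 0 on all arrays.

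The scaled signal of miR-145 was -4.24, -1.33 and -0.898 units on the stroma arrays. It was 3.52 and -2.06 units on the duct arrays and -3.95, -3.15 and -3.90 units on the TEB arrays. The signal was below 0 on 7 of the 8 arrays, and on the remaining one, duct replicate 1, it was 0.453 times its own error. miR-145 was thus one of the 408 mouse miRNAs (66.8%) that were detected on no array, and no tissue difference was tested for it. The signal plus 3 times its error, a generous upper limit, came to between 6.92 and 26.9 scaled units. The array also had a probe for miR-145*, the strand of the same hairpin that is usually degraded, and it was below 0 on all 8 arrays, from -8.70 to -2.11 scaled units. No probe for miR-143* was found under that name.

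miR-143 was lower in TEBs than in mature ducts, the comparison of the growing tip with the differentiated duct behind it. Its scaled signal averaged 62.2 ± 2.9 units (SD, n = 3) in TEBs and 95.1 ± 7.9 units (SD, n = 2) in ducts. This is a log2 fold change of -0.61 for TEBs over ducts, or 0.655-fold (standard error 0.15, 95% interval from -0.97 to -0.25, adjusted p = 0.027 from limma). At this threshold 24.6% of the tested miRNAs differed between the 2 tissues, and 13.2% were lower in TEBs. Under the scaling used here all 3 TEB arrays lay below both duct arrays, as was the case for 43.1% of the tested miRNAs. The two-sided exact permutation test gave p = 0.1, which no arrangement of 3 and 2 arrays can undercut. A number in the scan names, taken here as the row of the slide, divides the arrays into rows 1 and 2. No label gives its meaning. The difference was -0.68 among the arrays of row 1 (2 TEB, 1 duct) and -0.57 among those of row 2 (1 TEB, 1 duct). The call was lost in 12 of 22 alternatives. Leaving out any 1 of the 5 TEB and duct arrays moved the adjusted p from limma to between 0.057 (without TEB replicate 3) and 0.16 (without duct replicate 1), with 0.067 without duct replicate 2, 0.063 without TEB replicate 1 and 0.065 without TEB replicate 2, and the log2 fold change ran from -0.70 to -0.53. Scaled to the 75th percentile of all 611 mouse miRNAs, which falls at weak signals of 11.5 to 29.9 units, the log2 fold change was -0.060 (adjusted p = 0.88). The call was also lost with quantile normalization (adjusted p = 0.074), in the series matrix values (adjusted p = 0.076), with scaling to the median (adjusted p = 0.058), without a detection filter (adjusted p = 0.087) and by the methods' t-test (adjusted p = 0.055). With the replicate number as a block in limma it was lost as well (adjusted p = 0.085).

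Against stroma, miR-143 was lower in TEBs by about as much as the typical tested miRNA. The stromal signal averaged 82.6 ± 12.6 units (SD, n = 3), and the log2 fold change of TEBs over stroma was -0.40, or 0.758-fold (standard error 0.13, 95% interval from -0.72 to -0.08, adjusted p = 0.035 from limma). In this comparison 64.7% of the tested miRNAs passed the same threshold, 44.3% with lower and 20.4% with higher values in TEBs. For 48.5% all TEB arrays lay below all stroma arrays under the scaling used here, as for miR-143 (two-sided exact permutation test, p = 0.1, again the lowest that can be reached). The median log2 fold change of the 167 tested miRNAs was -0.28, and miR-143 was at percentile 44.6 of them. Leaving out stroma replicate 1 or 2 gave an adjusted p of 0.11 and 0.10, and leaving out TEB replicate 1, 2 or 3 gave 0.082, 0.062 and 0.095. Scaled to the median of the 108 miRNAs in place of their 75th percentile, the log2 fold change turned to 0.085 (adjusted p = 0.61 from limma), and scaled to all mouse miRNAs it was -0.0071 (adjusted p = 0.99).

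Between ducts and stroma no difference in miR-143 was called. The log2 fold change of ducts over stroma was 0.21 (standard error 0.15, 95% interval from -0.15 to 0.57, adjusted p = 0.38 from limma), where 21.6% of the tested miRNAs passed (9.58% higher and 12% lower in ducts), and the exact permutation test gave p = 0.4. The interval allows ducts to hold up to 0.57 more on the log2 scale or 0.15 less, and the call was not the same under all scalings. With no scaling it was 0.82 (adjusted p = 0.045) and with scaling to the median 0.55 (adjusted p = 0.039), whereas with a normexp background correction it turned to -0.067 (adjusted p = 0.57). In order, the mean signal of miR-143 was highest in ducts, then stroma, then TEBs, and the neighbours ducts and stroma did not differ beyond their spread. With both epithelial fractions pooled, the 5 arrays differed from the 3 stroma arrays by -0.16 on the log2 scale (exact permutation test, two-sided, p = 0.48, where the smallest possible p is 0.018). The duct and TEB arrays lay on either side of the stroma mean, and the sign of this difference turned under 3 scalings. Of the tested miRNAs 33.5% separated completely in this comparison.

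**Figure D2:**
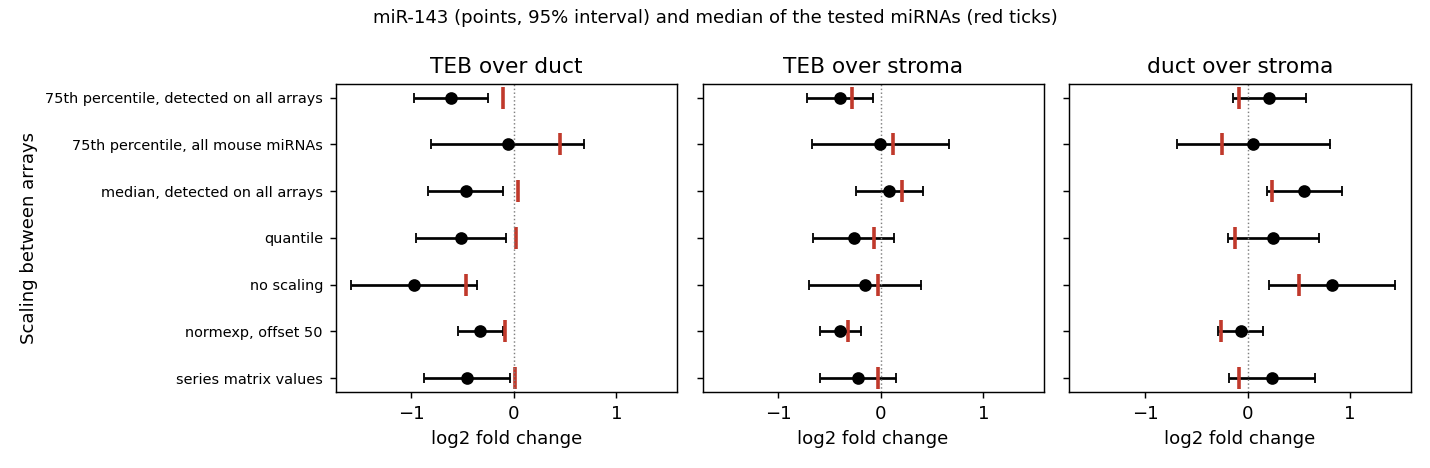
log2 fold change of miR-143 (points, with 95% intervals from limma) in the 3 comparisons under 7 ways of putting the arrays on a common scale, with red ticks for the median of the 167 tested miRNAs. For TEBs over ducts miR-143 lies to the left of the median under each of them, while its position against 0 moves from -0.98 without scaling to -0.060 with the percentile over all mouse miRNAs.

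A scaling by 1 factor per array shifts all miRNAs of an array together, apart from those at the floor, so the distance of miR-143 from the median of the tested miRNAs is by construction nearly the same under such scalings. For TEBs over ducts this distance was -0.51 on the log2 scale. Under the alternatives that could change it, it was -0.54 with quantile normalization, -0.47 in the series matrix values, -0.41 with a pseudocount in place of the floor and -0.24 with normexp. For TEBs over stroma the distance was -0.12, and for ducts over stroma it was 0.30. The largest of these distances was thus the one between TEBs and ducts, at percentile 25.3 of the tested miRNAs, against percentile 70.5 for ducts over stroma. The median itself moved with the scaling, from -0.47 without scaling to 0.45 with the percentile over all mouse miRNAs for TEBs over ducts.

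**Figure D3:**
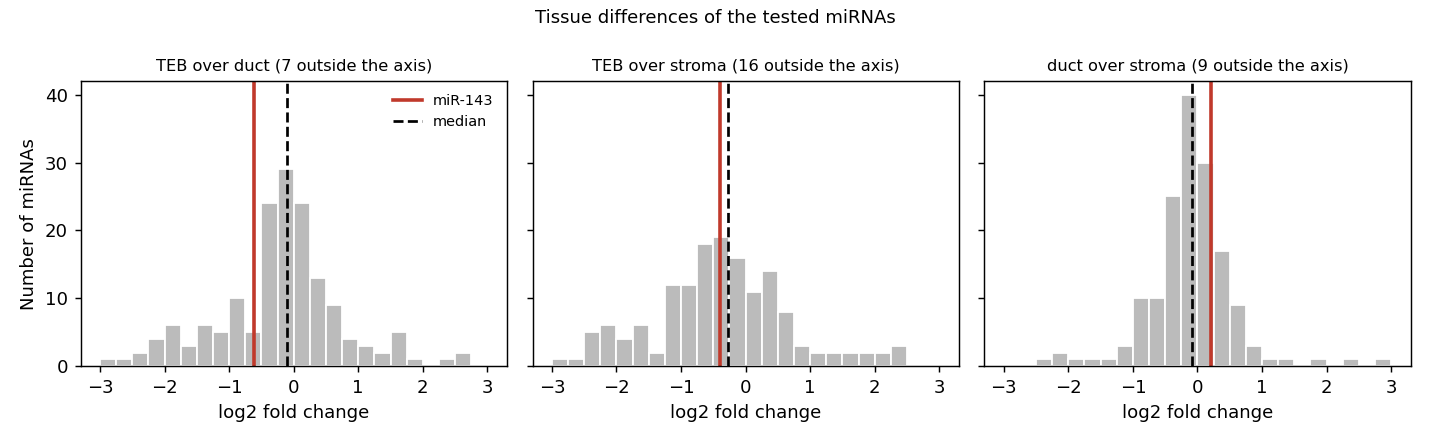
Number of tested miRNAs by log2 fold change in bins of equal width, in each comparison, with miR-143 as a red line and the median as a dashed line. In all 3 panels miR-143 falls within the bulk of the 167 miRNAs, at percentiles 25.3, 44.6 and 70.5, and 7, 16 and 9 miRNAs lie beyond a log2 fold change of 3 in either direction.

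The miRNAs most like miR-143 were found by the root mean square difference of log2 profiles over the 8 arrays, each centred on its mean. The closest 5 of the other 166 were miR-100 (0.15), miR-140 (0.16), miR-331-3p (0.18), miR-425 (0.20) and miR-10a (0.20), against a median difference of 0.48. These points share their arrays and scaling factors. miR-100, which lies in a cluster with let-7 and miR-125 genes, had scaled signals of 145.2 to 158.6 units in stroma (median 148.4). In ducts it was at 142.0 and 148.7 units. In TEBs it ran from 104.6 to 114.4 units (median 111.9). The TEB arrays were again the lowest, and ducts and stroma overlapped. miR-140, best known from cartilage, was at 134.2 and 134.6 units on the duct arrays and at 98.2 to 101.2 units in TEBs. Between TEBs and ducts miR-100, miR-140 and miR-10a passed the threshold, with log2 fold changes of -0.40 (adjusted p = 0.024 from limma), -0.43 (adjusted p = 0.024) and -0.50 (adjusted p = 0.015), while miR-331-3p and miR-425 had values of -0.30 (adjusted p = 0.18) and -0.41 (adjusted p = 0.092). With the percentile over all mouse miRNAs all 5 of these values turned positive, from 0.054 for miR-10a to 0.25 for miR-331-3p, and that of miR-425 also did with quantile normalization and in the series matrix values. Which miRNAs were closest depended on the measure and the arrays. A scaling by 1 factor per array cancels in this measure and cannot change the list. Of the 5, 4 were again among the closest with a pseudocount and with normexp, 3 with quantile normalization, 2 in the series matrix values and 2 to 4 when an array was left out. The mature sequence of miR-331-3p, from RefSeq, is shown as an example of these 5, with the seed (the bases at positions 2 to 8, which pair with targets) in capitals. It lies on chr10:93963783-93963803 of GRCm38.p6 on the minus strand.
miR-331-3p: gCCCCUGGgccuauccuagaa

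miR-143 was also set beside miRNAs of blood and vessels, which all 3 fractions can hold. Ordered by Pearson's r with miR-143 over the 8 arrays in place of the distance, miR-451, an abundant miRNA of red blood cells, came first (r = 0.94, with arrays and scaling factors shared), and 1 of the 5 miRNAs named above was among the first 5. The next were miR-690 (0.92), let-7b (0.87), miR-10b (0.86) and miR-140 (0.86), which are not on the blood list. miR-144, miR-142-3p and miR-223 were not among the first 10. miR-451 had scaled signals of 3516, 3440 and 1958 units in stroma. In ducts it was at 3245 and 2556 units. In TEBs it was at 1595, 1874 and 1358 units. Both miRNAs were thus lowest in TEBs, and both had their lowest stromal value on replicate 3 and their higher duct value on replicate 1. The log2 fold change of miR-451 was -0.85 for TEBs over ducts (adjusted p = 0.066 from limma, from -1.22 to -0.30 under 7 other scalings and corrections, 3 of which called it) and -0.85 for TEBs over stroma (adjusted p = 0.027, past the threshold under 2 of the 7 and negative under all of them). Of the 5 blood miRNAs on the list (miR-451, miR-144, miR-142-3p, miR-142-5p and miR-223), 4 were tested. Against stroma 3 of them were called lower in TEBs, as were 44.3% of all tested miRNAs. Between TEBs and ducts 0 passed the threshold, against 24.6% of all tested miRNAs. The blood miRNAs did not share a direction for TEBs over ducts. The log2 fold change was -0.78 for miR-144 but 0.40 for miR-142-3p and 0.053 for miR-223, the last of which turned to -0.31 without scaling. The scaled signals of the list summed to 2582 to 4147 units on the stroma arrays. The sums on the duct arrays were 2949 and 3645 units, those on the TEB arrays 1818 to 2348 units, and miR-142-5p was detected on no array. miR-451 itself made up most of each sum. Ducts and stroma could not be ordered for miR-451. Its mean signal was 2971 units in stroma and 2900 units in ducts, while its log2 fold change of ducts over stroma was 0.0042. The endothelial miR-126-3p was highest in stroma, where it ranged from 2765 to 3863 units (median 3526). Ducts came next with 1927 and 2061 units, and TEBs were lowest with 1315 to 1650 units (median 1430). The r of miR-126-3p with miR-143 was 0.61. The other endothelial strand, miR-126-5p, was detected on no array. The part of blood or vessels in the miR-143 values was not tested.

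**Figure D4:**
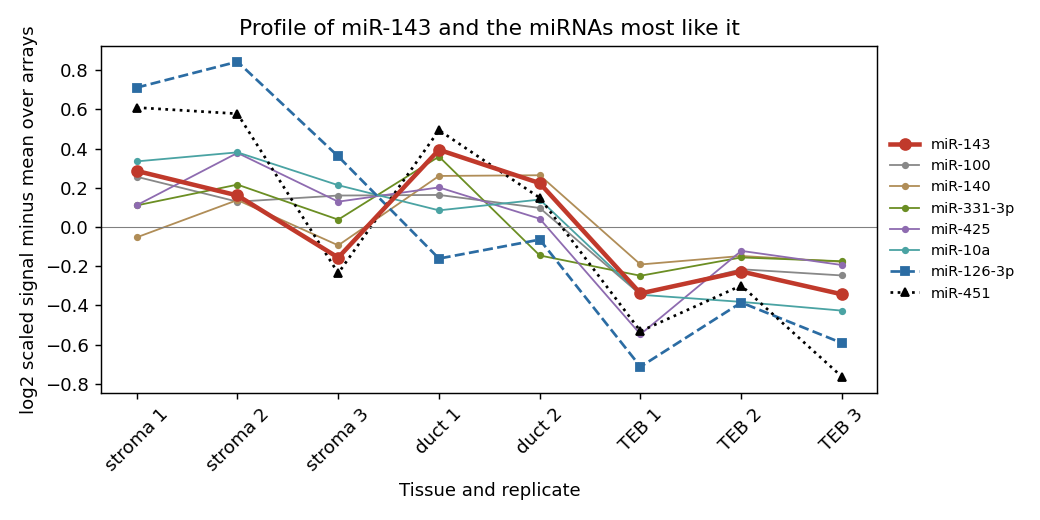
log2 scaled signal on each array minus the miRNA's mean over the 8 arrays, for miR-143 (red), the 5 miRNAs closest to it (thin lines), the red cell miR-451 (dotted) and the endothelial miR-126-3p (dashed). miR-143 and miR-451 rise and fall on the same arrays, the latter over a wider range, while miR-126-3p is highest in stroma and lower in ducts.

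Other miRNAs tied to smooth muscle and mesenchyme did not share one order of the tissues. The order of miR-143, with the highest mean in ducts and the lowest in TEBs, was also that of 3 of the 6 tested miRNAs of the smooth muscle phenotype (miR-24, miR-133a and miR-133b) and of 1 of the 7 tested fibroblast and mesenchymal miRNAs (miR-199b*). How many of all tested miRNAs had this order was not counted, so nothing is read from these counts. The means of miR-24 were close, at 922, 896 and 860 units in ducts, stroma and TEBs. For TEBs over stroma the sign of miR-24 and that of miR-199b* each turned under 5 of 7 other scalings and corrections. miR-133a and miR-133b are also on the striated muscle list below. Of 8 miRNAs on the list for the smooth muscle phenotype, 6 were tested. Between TEBs and ducts 0 of them passed, against 24.6% of all tested miRNAs. Their median log2 fold change there was -0.27 against -0.10 for all tested miRNAs. Between TEBs and stroma miR-26a, which holds back smooth muscle differentiation, was lower in TEBs (log2 fold change -0.60, adjusted p = 0.0073 from limma, called under 4 of 7 other scalings and corrections) and miR-221, which promotes smooth muscle growth, was higher (0.89, adjusted p = 0.020). The value of miR-221 turned to -0.23 with normexp, and its means were weak, at 8.79 units in stroma and 16.5 units in TEBs. TEBs were the only tissue with miR-221 detected on every array, so it entered the test through the tissue where it was highest. Selection of this kind favours high values in TEBs, and the differences of miR-221 cannot be read as independent of it. miR-21, a growth-promoting miRNA, had a log2 fold change of 0.24 for TEBs over ducts (adjusted p = 0.42), miR-221 one of 0.46 (adjusted p = 0.24) and miR-24 one of -0.10 (adjusted p = 0.48). In the direction of miR-143, miR-26a had a value of -0.43 (adjusted p = 0.062), miR-133a one of -1.16 (adjusted p = 0.066) and miR-133b one of -1.32 (adjusted p = 0.15). The values of miR-133a and miR-133b were negative under all 7 other scalings and corrections, 1 of which called each, while that of miR-26a turned to 0.12 with the percentile over all mouse miRNAs. Of the 9 fibroblast and mesenchymal miRNAs, 8 were on the array under that name and 7 were tested, with 0 called between TEBs and ducts. Between TEBs and stroma 3 of the 7 were higher in TEBs (miR-199a-3p, miR-199a-5p and miR-214) and 3 lower (miR-29a, miR-29b and miR-29c, which target collagen transcripts). Of all tested miRNAs 20.4% were called higher and 44.3% lower in that comparison. miR-214, which shares a host transcript with miR-199a, was higher in TEBs (log2 fold change 0.85, adjusted p = 5.8e-04), and so was miR-199a-5p (0.69, adjusted p = 0.0048). The 3 that were higher were called under all 7 other scalings and corrections. The 3 that were lower kept their sign under all 7 and were called under 4 each. miR-143 was called under 2 in this comparison, and its sign turned when arrays were scaled to the median. Of the 8 striated muscle miRNAs 5 were detected on no array, and the tested ones were miR-133a and miR-133b, which belong to skeletal and cardiac muscle. The signals of the list summed to 31.2 to 60.2 scaled units on the stroma arrays, 56.1 and 178.6 units on the duct arrays and 17.1 to 89.5 units on the TEB arrays. miR-133b was at 15.6, 25.2 and 34.4 units in stroma, 31.7 and 57.3 units in ducts and 7.74, 30.9 and 20.7 units in TEBs. Neither miR-133a nor miR-133b was called detected on stroma replicates 1 and 2 or on TEB replicate 1. Their fold changes and order of tissues therefore rest in part on signals not called detected. Ducts were the only tissue with either of them detected on every array, so both entered the test through the tissue where they were highest. That filter favours high values in ducts, and their order and differences cannot be read as independent of it. Both tested striated muscle miRNAs had all TEB arrays below both duct arrays, as had 43.1% of all tested miRNAs. For miR-133b the margin was narrow, with 30.9 units on a TEB array against 31.7 units on a duct array. Their median log2 fold change was -1.24 for TEBs over ducts, and 0 of them passed the threshold. The part of muscle in the miR-143 values was not tested. The basal epithelial miR-205 had a log2 fold change of 0.0037 for TEBs over ducts (standard error 0.11, 95% interval from -0.26 to 0.27, adjusted p = 0.98), with means of 41.1 and 40.9 scaled units. Its value ran from -0.36 without scaling to 0.55 with the percentile over all mouse miRNAs, and 1 of the 7 alternatives called it. It was detected on no stroma array. The 4 adipocyte miRNAs on the list (miR-378, miR-378*, miR-193 and miR-365) were all lower in TEBs and in ducts than in stroma, except that miR-193 turned to 0.019 for ducts over stroma without scaling and was called there under 4 of the 7, and 0 were called between TEBs and ducts. Of all tested miRNAs 44.3% were called lower in TEBs than in stroma and 12% lower in ducts than in stroma. miR-378 had a log2 fold change of -2.30 for ducts over stroma (adjusted p = 0.0048). In the same comparison miR-143 had one of 0.21.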

How the data were processed

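The authors deposited, for each array, the total gene signal intensity of every miRNA with its error and a detection flag, made with Agilent Feature Extraction 9.5.3 per the submitters' processing notes from an Agilent mouse miRNA array (Cy3-pCp label). The intensity is background-subtracted and not normalized between arrays. The deposited series matrix holds log2 values of the same arrays, by a method not given in the sources used here. It served as an alternative, and its scale and direction match those of the intensities. Its column median was 0.17 on duct replicate 1 and 1.57 to 1.69 on the other arrays, and any centring is unknown.

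Arrays were grouped by tissue as named in their titles. Control probes and 39 viral probes were left out. Each array was scaled to the 75th percentile over the mouse miRNAs detected on all 8 arrays, and values below a floor of 1 were raised to it before the log2 transformation. The 167 miRNAs detected on every array of a tissue were fitted over the 8 arrays with limma 3.58.1 (R 4.3.3; lmFit, contrasts.fit, eBayes) and adjusted by Benjamini-Hochberg within each comparison at 0.05. Exact permutation tests enumerated all arrangements of the arrays. The fit was tested on simulated data. The files give no counts, so the number of arrays limits the precision; the summed signal of the mouse miRNAs was 54239 to 88828 units per array. The members, lists and alternatives were chosen with earlier results of these data known. Named were the members, the other strands of their hairpins, the 5 miRNAs closest to miR-143 and the listed miRNAs. The ratio of miR-143 to miR-145 and the likeness to miR-145 were planned and left out, since miR-145 was not above background.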

Additional observations from a re-analysis of the deposited data

How the results depend on the processing

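miR-143 was lower in TEBs than in ducts under all 22 alternatives tried, with an adjusted p under 0.05 in 10 of them, and lower in TEBs than in stroma in 21 of 22, with 10 under 0.05. The scaling to the median of the detected miRNAs was chosen after seeing the data. The log2 fold changes for TEBs over stroma, ducts over stroma and TEBs over ducts were -0.40, 0.21 and -0.61 as reported. With the 75th percentile over all mouse miRNAs those of TEBs over stroma and over ducts were -0.0071 and -0.060, with quantile normalization -0.27 and -0.52, and with the series matrix values -0.22 and -0.46, none of them past the threshold. Without scaling TEBs over stroma was -0.15 and not called, and ducts over stroma 0.82 and called. With the median the 3 values were 0.085 (reversed), 0.55 (called) and -0.47 (adjusted p = 0.058). Normexp with an offset of 50 turned ducts over stroma to -0.067. Without a detection filter the values of TEBs over stroma and over ducts were -0.40 and -0.61 (adjusted p = 0.092 and 0.087), and by the methods' t-test -0.40 and -0.61 (adjusted p = 0.069 and 0.055). With the replicate number as a block, the difference between TEBs and ducts was -0.54 (adjusted p = 0.085) and 16 miRNAs were called there against 41. Over 7 same-numbered pairs, deviations from tissue means correlated at -0.51 to 0.36, and 2 of 8 arrays correlated best with their number. As deviations cancel within a tissue, shared mice stay possible. Both epithelial fractions over stroma turned from -0.16 to 0.017 with the percentile over all miRNAs, 0.24 without scaling and 0.27 with the median. Leaving out each array gave -0.53 to -0.31, 0.085 to 0.31, -0.70 to -0.53 for the 3 comparisons in this order and, for both fractions over stroma, -0.28 to -0.061.

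For TEBs against stroma 108 miRNAs were called, for ducts against stroma 36 and for TEBs against ducts 41. With the percentile over all miRNAs TEBs against stroma gave 66 and ducts against stroma 19. Without scaling ducts against stroma gave 56 and TEBs against ducts 75, with normexp 69 and 27, and TEBs against ducts gave 18 without a filter and 12 by the methods' t-test (53 before adjustment). Leaving out an array gave 81 to 114, 22 (without duct replicate 1) to 40, and 5 to 45, with 5 without TEB replicate 2, 7 without duct replicate 1 and 25 without duct replicate 2. The share of calls that were higher in TEBs than in stroma was 31.5%, and 57.6%, 50%, 62.1% and 41.7% with the percentile over all miRNAs, no scaling, the median and the series matrix, but 20.6% with normexp. For ducts over stroma it was 44.4%, and 57.9%, 92.9% and 81.8% with the first 3 of these, but 20.3% with normexp and 17.2% over the miRNAs detected on all arrays. For TEBs over ducts it was 46.3%, and 80%, 16%, 60.6% and 64.0% with these 4 and 68.9% with quantile normalization, but 30% with a pseudocount. miR-145 was not above background, so that it has no value here.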

Other observations

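A split such as that of miR-143 and miR-145, with one hairpin detected and its neighbour not, was counted for other neighbouring hairpins on the array after their values had been seen. Of 442 hairpins on the array, 316 matched a single RefSeq gene (GRCm38.p6) by name, and they formed 95 pairs of neighbours less than 10 kb apart. In 30 pairs at least 1 hairpin had a strand detected on all 8 arrays. Both hairpins did so in 5 of them (miR-23a and miR-27a, miR-23b and miR-27b, miR-25 and miR-93, miR-127 and miR-434, miR-195 and miR-497). In 16 pairs, miR-143 and miR-145 among them, the other hairpin was detected on no array. Many of these pairs lie in large clusters, such as miR-299 and miR-380 or miR-20b and miR-18b. Pairs within a cluster share members, and whether 2 probes respond alike to equal amounts of miRNA was not tested.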
